A study of Mus musculus with 2 samples.

Results

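The 10 genes described here are the G1-phase cell cycle genes Ccnd1, Ccnd2, Ccnd3, Ccne1, Ccne2, Cdkn1a, Cdkn1b, Cdkn2c and Rb1, together with Trp53, out of 32286 counted features. They were chosen by name, and all 10 were present in both matrices. Satellite cells, the stem cells of skeletal muscle, had been sorted 5 days after injury from Pax3GFP/+ mice, in which green fluorescent protein reports the Pax3 locus, by GFP into positive (GFP+, PAX3+) and negative (GFP−, PAX3−) fractions. The muscles were biceps and recto femoris. The genotype field calls both samples wild-type although the animals carried the reporter allele. The sources used here give neither the age and number of the mice nor the kind of injury. From each fraction 20000 cells were loaded for 1 library of droplet-captured single cells read from the 3′ end of their RNA. With 1 library per fraction there is no replicate and no test between fractions, and every interval below is a 95% interval that covers counting error only.

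D-type cyclins bind CDK4 and CDK6, E-type cyclins bind CDK2, and both kinds of complex phosphorylate the retinoblastoma protein encoded by Rb1, which otherwise holds E2F transcription factors in check. Cdkn1a and Cdkn1b encode p21 and p27, inhibitors of cyclin-bound kinases, Cdkn2c encodes p18, an inhibitor of CDK4 and CDK6, and Trp53 encodes p53, a transcription factor that induces Cdkn1a. In muscle, cycling myoblasts express Mki67, cells that enter terminal differentiation switch on Myog, and p21 and the retinoblastoma protein are known for their part in keeping differentiated muscle cells out of the cycle.

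A barcode was kept as a cell if it had 1000 or more UMIs (unique molecular identifiers, 1 per captured transcript), 500 or more genes and no more than 10% mitochondrial UMIs. The GFP+ library kept 604 cells (median 18534 UMIs) and the GFP− library 2683 (median 14663 UMIs), and 2 of the barcodes occurred in both libraries. Pax3 was at 19.8 CPM (UMIs per 1000000 UMIs of the same cells) in the GFP+ and 4.95 CPM in the GFP− library, and the added reporter feature had 570 and 0 UMIs. Cells were placed in classes by at least 1 UMI of a marker. Pax7-positive Mki67-negative cells numbered 370 in the GFP+ and 1466 in the GFP− library, Mki67-positive cells 88 and 521, and Myog-positive cells 133 and 740. The classes overlap: 28 and 140 cells had both Mki67 and Myog, and 42 and 250 Myog-positive cells were also in the Pax7-positive Mki67-negative class. Intervals that compare classes take their cells as separate, which does not hold for comparisons with Myog-positive cells. An alternative with exclusive classes, given below, shares no cells. All 8 markers of the myogenic list were detected in each library, and 81.6% and 90.5% of kept cells had 10 or more of their UMIs. Cells with 10 or more UMIs of a macrophage, mural, glial, endothelial or fibroblast list made up 15.9% of GFP+ and 8.54% of GFP− cells. They made up 22.7% and 11.9% of Mki67-positive cells, 3.51% and 1.5% of Pax7-positive Mki67-negative cells and 3.76% and 2.57% of Myog-positive cells.

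A gene was called different where its ratio was at least 1.5 in either direction and it reached 10 CPM in 1 of the groups compared. Over all kept cells 2 of the 10 genes were called between the libraries: Ccne2 was higher and Ccnd2 lower in the GFP+ library. Of the 8343 genes tested there, 7.84% were called higher and 3.54% lower. In Pax7-positive Mki67-negative cells 0 of the 8 genes that reached the minimum were called, where 4.53% of all genes were higher and 2.58% lower. In Mki67-positive cells Ccne2 was the 1 gene of 9 called, and it was higher, where 8.81% of all genes were higher and 7.15% lower. In Myog-positive cells Ccne2 was again the 1 gene of 9 called, and it was higher, where 5.59% of all genes were higher and 6.09% lower. The members' counts are near these backgrounds. The median log2 ratio of the 10 genes over all kept cells was 0.01, beside −0.11 for all genes tested.

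The share of cells with a UMI of a gene was compared after every cell had been thinned to 5000 UMIs, with classes from the full counts, and a share was set apart where the intervals of both libraries did not meet. Over all kept cells Cdkn1a had the higher share in the GFP+ library, and Ccnd3 and Ccne1 the lower one. Among all genes tested 8.88% were higher and 15.2% lower by this rule. In Pax7-positive Mki67-negative cells 8 of the 10 genes reached 10 CPM. Of these Cdkn1a and Ccnd1 were higher and Ccne1 was lower, beside 5.33% and 7.93% of all genes. Cdkn1a was also higher in both sets of cells at 2000 and 10000 UMIs and without thinning. Ccnd1 and Ccne1 stood apart at 5000 UMIs only. Without thinning Ccnd3 was lower in both sets of cells, and at 10000 UMIs Trp53 was lower over all kept cells. In Mki67-positive cells 0 of the 10 genes were higher and 0 lower, beside 2.55% and 1.95%, and in Myog-positive cells likewise 0 and 0, beside 1.45% and 2.33%. The shares of all genes are of those that reached 10 CPM in either library before thinning. Of the members, 9 did so in each of these classes.

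Between cell classes a call had to be made in the same direction in both libraries. Against Pax7-positive Mki67-negative cells, Mki67-positive cells had 2 of 9 genes higher, Ccne2 and Cdkn2c, and 0 lower, beside 10.1% of all genes higher and 5.49% lower. Myog-positive cells had 2 of 8 genes higher, Cdkn1a and Rb1, and 0 lower, beside 8.01% higher and 8.15% lower. In an alternative with exclusive classes, cells with both Mki67 and Myog were left out, and cells with Pax7 and Myog counted as Myog-positive only. Mki67-positive cells then had the same 2 of 9 genes higher and 0 lower, beside 8.93% and 4.66%. Myog-positive cells had the same 2 of 8 genes higher and 1 lower, Cdkn2c, beside 7.45% and 10.4%. Without cells carrying other cell types' markers, Mki67-positive over Pax7-positive Mki67-negative was 15.8 (9.87 to 26.4) and 9.99 (6.96 to 14.7) for Ccne2 and 2.22 (1.82 to 2.72) and 1.66 (1.49 to 1.84) for Cdkn2c in the GFP+ and GFP− library. Likewise Myog-positive over Pax7-positive Mki67-negative was 2.76 (2.57 to 2.97) and 3.45 (3.31 to 3.60) for Cdkn1a and 4.49 (3.57 to 5.68) and 4.48 (3.95 to 5.09) for Rb1. The median log2 ratio of the members tested was 0.40 for Mki67-positive and 0.16 for Myog-positive cells, beside 0.01 and −0.03 for all genes.

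**Figure D1:**
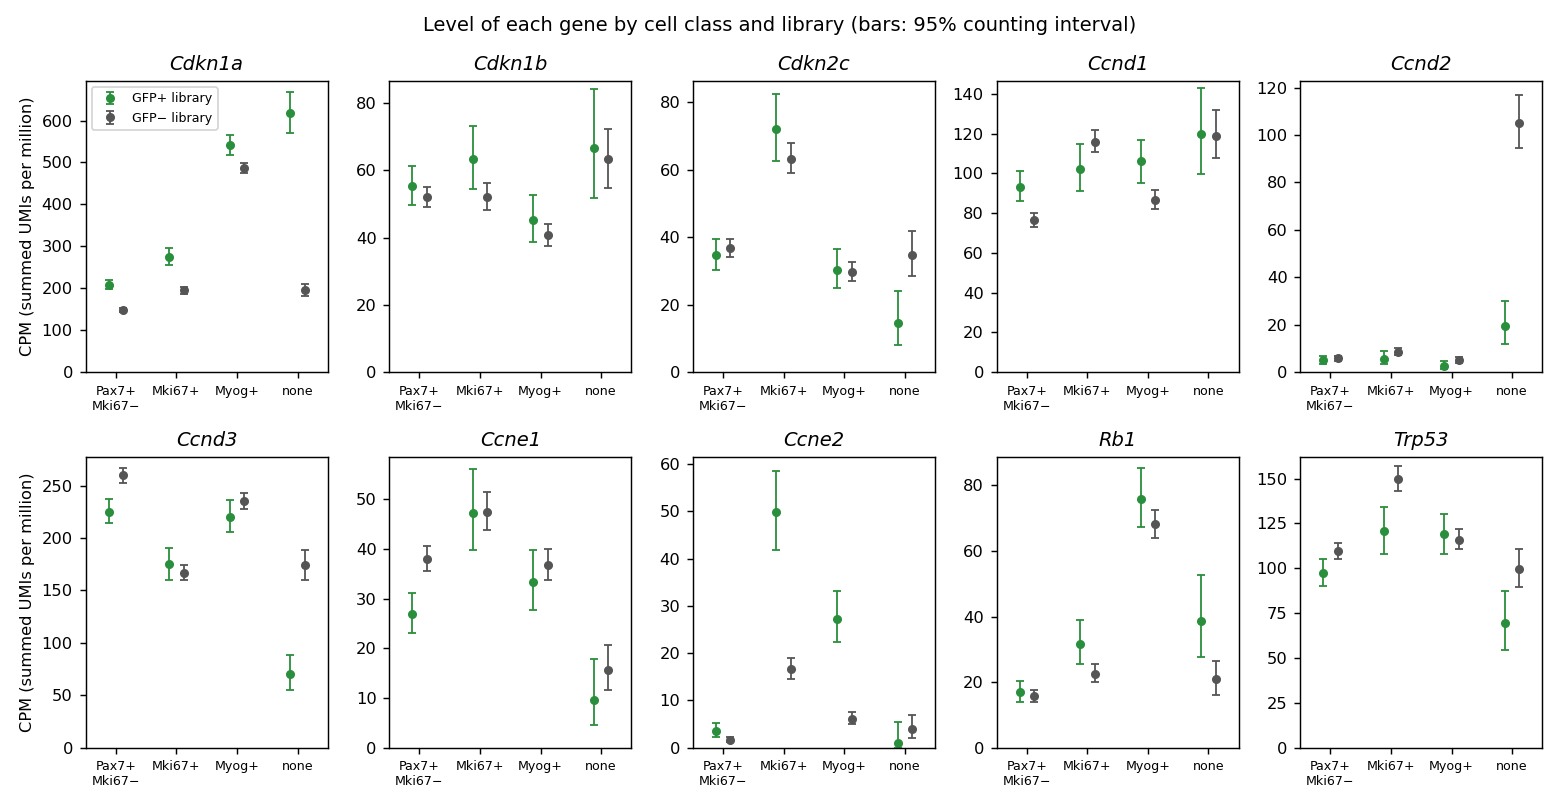
Level of each of the 10 genes in CPM (y axis, from 0, a separate scale per gene) by cell class, including cells with none of the 3 markers (x axis), in the GFP+ and the GFP− library. Bars are 95% counting intervals. Cdkn1a and Rb1 stand higher in Myog-positive than in Pax7-positive Mki67-negative cells of both libraries, and Cdkn2c and Ccne2 stand higher in Mki67-positive cells.

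Among the D-type cyclins, Ccnd1 (ENSMUSG00000070348, chr7:144929931-144939925, minus strand, GRCm38, as all positions of genes here) was at 93.3 CPM (86.0 to 101) in Pax7-positive Mki67-negative, 102 CPM (91.0 to 115) in Mki67-positive and 106 CPM (95.4 to 117) in Myog-positive cells of the GFP+ library. In the GFP− library the same classes had 76.4 CPM (72.8 to 80.1), 116 CPM (111 to 122) and 86.8 CPM (82.2 to 91.7). Intervals of all 3 classes overlapped in the GFP+ library, and Mki67-positive cells stood above the others in the GFP− library. The ratio of Mki67-positive to Pax7-positive Mki67-negative cells was 1.10 (0.951 to 1.26) in the GFP+ and 1.52 (1.42 to 1.63) in the GFP− library, with intervals apart. Mki67-positive cells without Myog had 74.4 CPM (61.9 to 88.6) in the GFP+ and 111 CPM (104 to 119) in the GFP− library, a ratio between libraries of 0.668 (0.550 to 0.806). Mki67-positive cells without other cell types' markers had 110.1 and 110.3 CPM, a ratio of 0.998 (0.869 to 1.14).

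Ccnd1 also differed by signs of DNA replication. Cells were ranked by the share of their UMIs in 14 replication genes (such as Pcna and the Mcm genes), and the top 10% of each library was set apart. Mki67-negative cells in that range had 257 CPM (213 to 307) of Ccnd1 in 22 GFP+ cells and 195 CPM (172 to 220.4) in 77 GFP− cells. Mki67-positive cells in the range had 155 CPM (136 to 176) and 133 CPM (123 to 143). Mki67-negative cells in the top range thus stood highest in both libraries. Below the range, Mki67-positive cells had 42.3 CPM (32.1 to 54.8) in the GFP+ and 104 CPM (96.5 to 111) in the GFP− library, and Mki67-negative cells 83.9 and 72.7 CPM. The share marks a range and not a cell type: 6 GFP+ and 49 GFP− cells lay within 10% of the limit, which was 0.0737% and 0.117% of a cell's UMIs. Here and below, the replication groups include cells with other cell types' markers, 22.7% of GFP+ and 11.9% of GFP− Mki67-positive cells. Levels of these groups were not measured without such cells.

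In cells with other cell types' markers, Ccnd1 had 1055 CPM (871 to 1266) in the 17 GFP− cells of the glial list. The GFP+ library had 0 such cells, and the glial marker Sox10 was at 0 there. The 24 fibroblast-list cells of the GFP− library had 228 CPM (183 to 279.7).

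Ccnd3 (ENSMUSG00000034165, chr17:47505051-47599691, plus strand) was at 225 CPM (214 to 237) in Pax7-positive Mki67-negative, 175 CPM (159.8 to 191) in Mki67-positive and 220.4 CPM (206 to 236) in Myog-positive cells of the GFP+ library. In the GFP− library they were 260.0 CPM (253 to 267), 167 CPM (159.8 to 174) and 235 CPM (228 to 243). Mki67-positive cells had the lowest level of the 3 classes in each library, with intervals apart from the others. Their ratio to Pax7-positive Mki67-negative cells was 0.776 (0.700 to 0.859) in the GFP+ and 0.642 (0.610 to 0.674) in the GFP− library, so that the 1.5-fold limit was passed in the GFP− library alone. Without cells carrying other cell types' markers these ratios were 0.873 (0.783 to 0.971) and 0.656 (0.622 to 0.691). In cells of the macrophage list Ccnd3 was at 36.9 CPM (26.8 to 49.5) in 75 GFP+ and 91.0 CPM (69.1 to 118) in 56 GFP− cells.

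Ccnd2 (ENSMUSG00000000184, chr6:127125162-127152193, minus strand) had few UMIs in the myogenic classes. It was at 4.90, 5.57 and 2.44 CPM in Pax7-positive Mki67-negative, Mki67-positive and Myog-positive cells of the GFP+ library and at 5.80, 8.55 and 5.01 CPM in those of the GFP− library. Empty droplets (barcodes with 1 to 100 UMIs) held it at 6.44 and 8.62 CPM, and all 6 class levels were under these values. Here and below, empty-droplet levels are shares of the UMIs of those barcodes. How much such RNA adds to a cell was not measured, so a level under them is not thereby background. Mki67-positive over Pax7-positive Mki67-negative gave 1.14 (0.582 to 2.13) in the GFP+ and 1.47 (1.13 to 1.92) in the GFP− library, but 0.205 (0.0236 to 0.820) and 0.222 (0.118 to 0.387) without cells carrying other cell types' markers. Over all kept cells it was at 5.76 CPM (4.48 to 7.29) in the GFP+ and 13.8 CPM (12.8 to 15.0) in the GFP− library, a ratio of 0.417 (0.320 to 0.535). Cells with other cell types' markers held 74.8% of its UMIs in the GFP− library, beside 7.38% of all UMIs, and 55.1% in the GFP+ library, beside 15.6% of all UMIs. In the GFP− library Ccnd2 reached 169 CPM (153 to 185) in the 149 mural-list cells, 275 CPM (226 to 332) in the 24 fibroblast-list cells and 171 CPM (101 to 269.8) in the 5 endothelial-list cells. The GFP+ library had 17 mural-list cells at 32.1 CPM, 8 fibroblast-list cells at 83.3 CPM and 0 endothelial-list cells. Without all cells carrying such markers the levels were 3.07 CPM (2.08 to 4.35) and 3.76 CPM (3.19 to 4.40), a ratio of 0.816 (0.536 to 1.21), and the gene was no longer called.

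**Figure D2:**
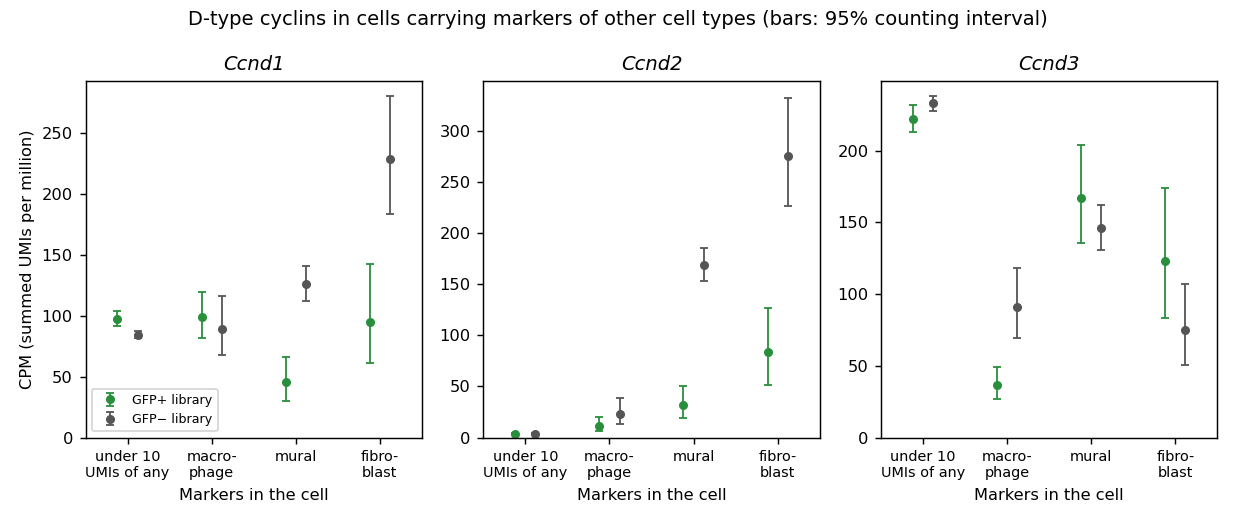
Ccnd1, Ccnd2 and Ccnd3 in CPM (y axis, from 0) in kept cells grouped by other cell types' markers (x axis) in the GFP+ and the GFP− library, with 95% counting intervals. Ccnd2 is at 3.07 and 3.76 CPM in cells with under 10 UMIs of any such list, and at 169 and 275 CPM in mural-list and fibroblast-list cells of the GFP− library.

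The make-up of the D-type cyclins differed between classes, with the wider shift in the GFP− library. Ccnd1 supplied 28.8% (26.9 to 30.8) of the family's UMIs in Pax7-positive Mki67-negative cells of the GFP+ library and 36.2% (32.9 to 39.6) in Mki67-positive cells. In the GFP− library its part was 22.3% (21.4 to 23.3) and 39.9% (38.3 to 41.5). The part of Ccnd3 was lower in Mki67-positive cells in turn, 61.8% (58.4 to 65.2) against 69.6% (67.6 to 71.6) in the GFP+ and 57.2% (55.6 to 58.8) against 76.0% (75 to 76.9) in the GFP− library. In the GFP+ library 5 Mki67-positive cells held 133 of the class's 294 Ccnd1 UMIs, or 45.2%. Without the 5% of cells with the most UMIs, GFP+ Mki67-positive cells had 146 UMIs of Ccnd1 and 324 of Ccnd3. GFP+ Pax7-positive Mki67-negative cells then had 570 and 1374, so little of the GFP+ shift was left. The GFP− classes had 846 and 1481, and 1547 and 5467. These are parts of captured UMIs, and capture may differ between genes.

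Of the E-type cyclins, Ccne1 (ENSMUSG00000002068, chr7:38097984-38107534, minus strand) was at 27.0 CPM (23.1 to 31.2) in Pax7-positive Mki67-negative, 47.3 CPM (39.7 to 56.0) in Mki67-positive and 33.3 CPM (27.7 to 39.7) in Myog-positive cells of the GFP+ library. The GFP− values were 38.0 CPM (35.5 to 40.7), 47.5 CPM (43.8 to 51.4) and 36.8 CPM (33.8 to 40.0). The libraries were level in Mki67-positive cells and stood furthest apart in the Pax7-positive Mki67-negative class, with a ratio of 0.709 (0.599 to 0.835) that did not reach the 1.5-fold limit. Mki67-positive over Pax7-positive Mki67-negative gave 1.76 (1.39 to 2.21) in the GFP+ and 1.25 (1.12 to 1.39) in the GFP− library. With each cell thinned to 5000 UMIs and the classes assigned again from the UMIs left, the values were 0.796 (0.204 to 2.24) and 1.05 (0.784 to 1.39), and neither interval gave a direction.

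Ccne1 was divided by replication share more than by Mki67. In the top range it was at 70.1 CPM (57.4 to 84.7) in Mki67-positive and 57.8 CPM (38.1 to 84.1) in Mki67-negative cells of the GFP+ library. The GFP− library had 76.0 CPM (68.9 to 83.6) and 82.9 CPM (68.2 to 99.7). Below the range it was at 21.5 CPM (14.4 to 30.9) and 22.3 CPM (19.3 to 25.7) in the GFP+ and 25.7 CPM (22.2 to 29.7) and 30.3 CPM (28.3 to 32.3) in the GFP− library. In each library the intervals of both upper groups overlapped each other and lay above both lower groups.

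Ccne2 (ENSMUSG00000028212, chr4:11191351-11204779, plus strand) had the widest class differences of the 10 genes. It was at 3.52 CPM (2.23 to 5.29) in Pax7-positive Mki67-negative and 49.8 CPM (41.9 to 58.6) in Mki67-positive cells of the GFP+ library, a ratio of 14.1 (9.05 to 23.0). In the GFP− library it was at 1.62 CPM (1.13 to 2.24) and 16.6 CPM (14.5 to 19.0), a ratio of 10.3 (7.19 to 15.1). The Pax7-positive Mki67-negative levels were under the 3.58 and 8.32 CPM of empty droplets, and they are the reference of both ratios. Mki67-positive cells of the top replication range had 92.4 CPM (77.7 to 109) in the GFP+ and 34.5 CPM (29.7 to 39.7) in the GFP− library, and Mki67-negative cells of that range 32.1 CPM (18.0 to 53) and 29.6 CPM (21.1 to 40.3). Below the range Mki67-positive cells had 1.48 and 3.04 CPM and Mki67-negative cells 1.04 and 0.696 CPM, all under the empty-droplet levels. In Myog-positive cells Ccne2 was at 27.3 and 6.14 CPM, and without those that also had Mki67 at 3.20 and 1.94 CPM. These were 1.19 (0.436 to 2.99) and 1.25 (0.672 to 2.30) times the level of Pax7-positive cells with neither other marker.

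**Figure D3:**
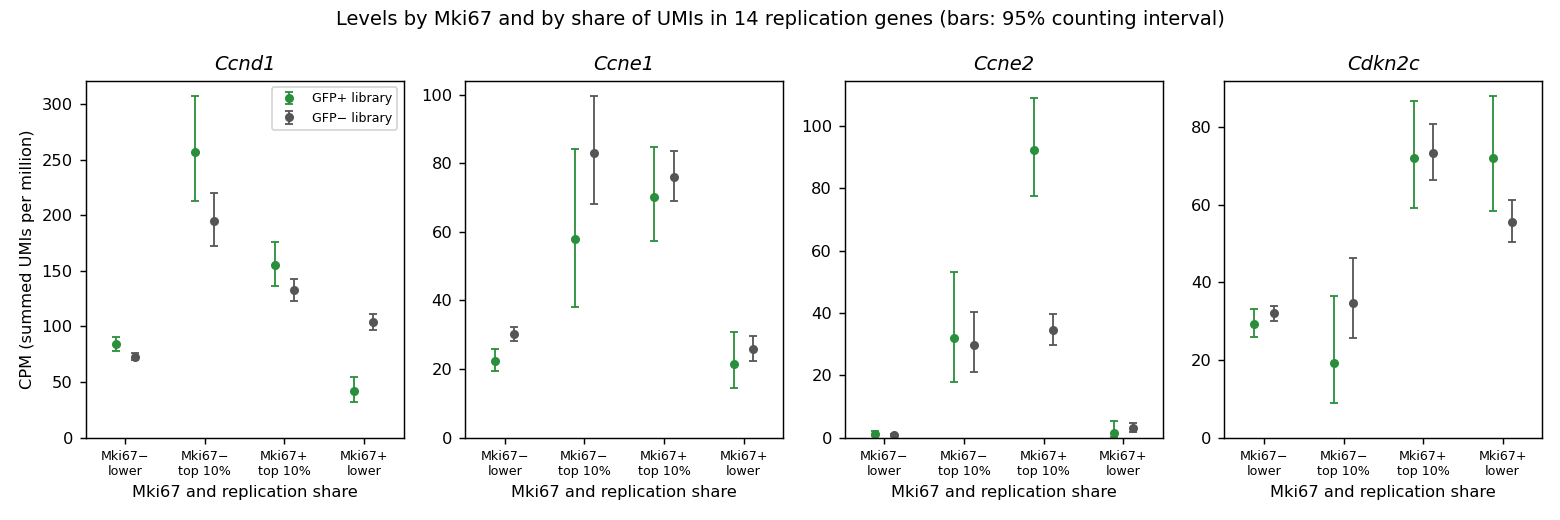
Ccnd1, Ccne1, Ccne2 and Cdkn2c in CPM (y axis, from 0) in 4 groups of cells made by Mki67 and by whether the share of UMIs in 14 replication genes was in the top 10% of the library (x axis), in the GFP+ and the GFP− library, with 95% counting intervals. Ccne2 is at 29.6 to 92.4 CPM in the top-range groups, and Cdkn2c at 55.6 to 73.3 CPM in the Mki67-positive groups. Cells with other cell types' markers are included in all groups.

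A few deep cells held a large part of the Ccne2 of the GFP+ library. Over all kept cells it was at 13.9 CPM (11.9 to 16.2) in the GFP+ and 6.17 CPM (5.46 to 6.94) in the GFP− library, a ratio of 2.26 (1.85 to 2.75). The ratio was 2.99 (2.40 to 3.72) in Mki67-positive and 4.45 (3.32 to 5.97) in Myog-positive cells. In the GFP+ library 5 cells held 71 of the 167 UMIs, or 42.5%, with 20, 17, 12, 11 and 11 UMIs each. These cells had 69465 to 82534 UMIs in all, and at most 0.662% of the library's cells had more. 1 further cell tied at 11 UMIs and was less deep, with 49470 UMIs in all and 3.64% of cells above it. The 5 GFP− cells with the most Ccne2 held 25 of 273 UMIs, or 9.16%, with at most 6 in a cell, and they had 29776 to 39815 UMIs in all. The last 2 of them tied at 4 UMIs with 2 further cells, of 25570 and 28970 UMIs. Without the 5% of cells with the most UMIs in each library the ratio was 1.14 (0.840 to 1.53) over all kept cells and 1.37 (0.953 to 1.92) in Mki67-positive cells, and neither was called. In Myog-positive cells it was 2.75 (1.64 to 4.56) without these deep cells, at 10.2 against 3.70 CPM, and stayed called. In exclusive classes it was 1.82 (1.29 to 2.52) in Mki67-positive cells, at 29.7 against 16.4 CPM, and stayed called. In exclusive Myog-positive cells it was 1.65 (0.633 to 3.88), with Ccne2 under the 10 CPM minimum. With all cells thinned to 5000 UMIs it was 1.28 (0.686 to 2.25) over all kept cells. After thinning, 14.3% (7.61 to 23.6) of 84 GFP+ and 8.27% (6.02 to 11.0) of 508 GFP− Mki67-positive cells had a Ccne2 UMI, with overlapping intervals, against 31.8% and 23.8% before. Whether the deep barcodes hold more than 1 cell was not tested.

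**Figure D4:**
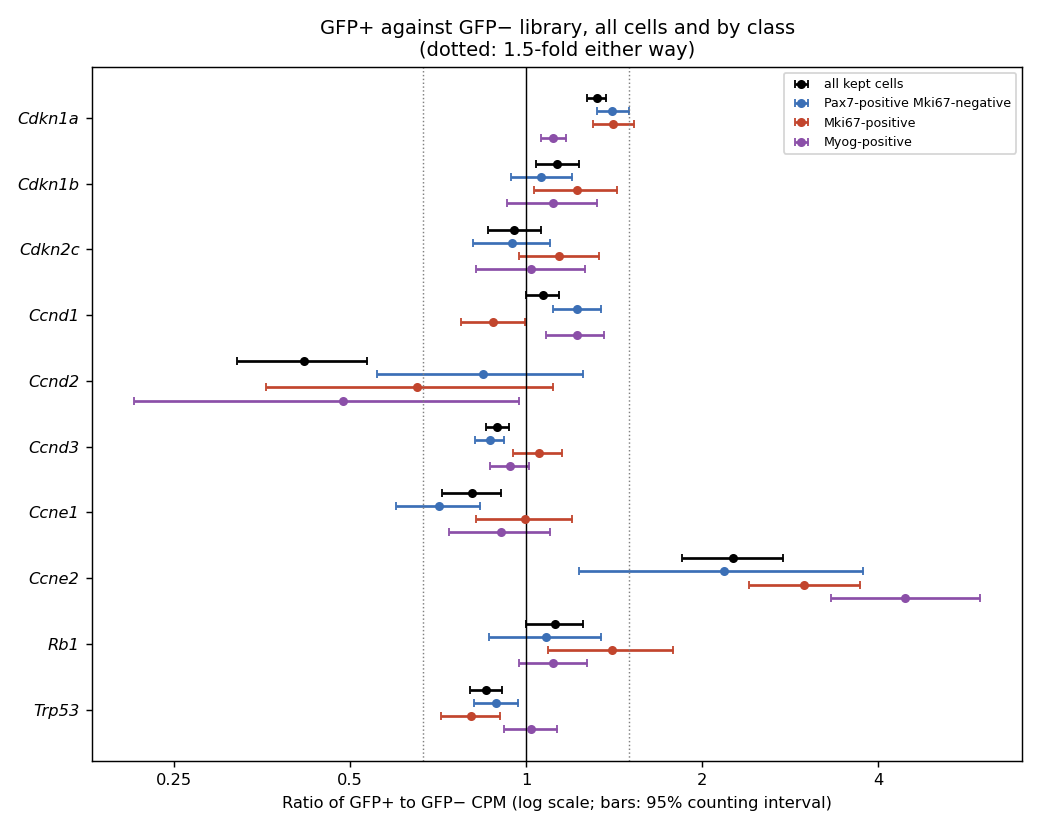
Ratio of GFP+ to GFP− CPM (x axis, log scale) for each gene (y axis) over all kept cells and in the 3 classes, with 95% counting intervals and dotted lines at 1.5-fold either way. Ccne2 lies right of the upper line at 2.18 to 4.45, where the 2.18 is of Pax7-positive Mki67-negative cells, under the 10 CPM minimum. Ccnd2 lies left of the lower line at 0.417 over all kept cells. It also does at 0.651 in Mki67-positive and 0.487 in Myog-positive cells, both under the minimum.

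Among the inhibitors, Cdkn1a (p21; ENSMUSG00000023067, chr17:29090976-29100727, plus strand) was higher with Myog. The sequence around its annotated start sites is shown because one of the windows is the only member window that held a motif searched. RefSeq (GRCm38.p6) gives both windows below, each from 250 bases before to 50 bases after a start, plus strand. Capitals mark motifs found on either strand: CAGCTG, an E-box of the kind myogenic factors bind, and ACATGT, a core found in p53 half-sites.
Cdkn1a upstream start, chr17:29090729-29091028: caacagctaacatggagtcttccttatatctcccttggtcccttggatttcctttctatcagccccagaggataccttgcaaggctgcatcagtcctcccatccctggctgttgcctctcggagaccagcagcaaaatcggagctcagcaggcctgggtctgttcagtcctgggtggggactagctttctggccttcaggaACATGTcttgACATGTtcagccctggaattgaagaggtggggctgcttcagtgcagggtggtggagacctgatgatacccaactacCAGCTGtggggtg
Cdkn1a downstream start, chr17:29093519-29093818: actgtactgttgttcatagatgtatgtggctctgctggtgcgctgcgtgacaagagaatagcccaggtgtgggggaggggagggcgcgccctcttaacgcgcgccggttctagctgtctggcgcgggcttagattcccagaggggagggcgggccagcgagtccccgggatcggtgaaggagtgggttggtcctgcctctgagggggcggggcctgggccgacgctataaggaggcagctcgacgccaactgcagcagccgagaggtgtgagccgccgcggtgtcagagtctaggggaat

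The upstream window held ACATGT at −49 to −44 and at −39 to −34 from the start, and CAGCTG at 37 to 42. The downstream window held neither, and neither window held the E2F words TTTCCCGC, TTTCGCGC, TTTGCCGC or TTTGGCGC. Of 32851 promoter windows of the same length, 16.3% held CAGCTG, 5.28% held ACATGT and 2.26% an E2F word. Windows were matched for 6 of the 10 genes, and those of Cdkn1b, Cdkn2c, Ccnd3, Ccne1 and Trp53 held none of these letters. A match is a stretch of letters and not a bound site, and 3′ reads do not show which start a transcript used.

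Cdkn1a was at 208 CPM (197 to 219) in Pax7-positive Mki67-negative, 275 CPM (256 to 295) in Mki67-positive and 542 CPM (518 to 566) in Myog-positive cells of the GFP+ library. The GFP− values were 148 CPM (143 to 153), 195 CPM (187 to 203) and 487 CPM (476 to 498). The order of the classes was the same in both libraries, with intervals apart, and in each class the GFP+ value was the higher one. Myog-positive over Pax7-positive Mki67-negative gave 2.60 (2.43 to 2.79) in the GFP+ and 3.29 (3.15 to 3.43) in the GFP− library. In exclusive classes these ratios were 3.29 (3.04 to 3.56) and 4.90 (4.66 to 5.16). Mki67-positive over Pax7-positive cells in exclusive classes gave 1.07 (0.948 to 1.22), an interval that includes 1, in the GFP+ and 1.35 (1.26 to 1.45) in the GFP− library. Empty droplets held Cdkn1a at 221 and 188 CPM, above the Pax7-positive Mki67-negative cells and below the Myog-positive cells.

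Cdkn1a was highest in cells with the most Myog. It was at 245 CPM (235 to 256) in GFP+ cells without Myog, 227 CPM (204 to 252) below 200 CPM of Myog, 318 CPM (274 to 367) at 200 to 2000 CPM and 923 CPM (877 to 972) in the 56 cells with 2000 CPM or more. The GFP− library had 137 CPM (133 to 141), 172 CPM (161 to 183), 259 CPM (244 to 276) and, in 279 cells, 957 CPM (932 to 983). The GFP+ library was higher in the lower 3 ranges, with intervals that just overlapped at 200 to 2000 CPM, and the libraries overlapped in the top range. These ranges include cells with other cell types' markers. Such cells held 21.8% of the Cdkn1a UMIs of the GFP+ library, beside 15.6% of all its UMIs. In the GFP− library they held 7.77%, beside 7.38%. Of the 75 GFP+ and 56 GFP− macrophage-list cells, 4 and 6 had Myog. The range without Myog was not measured without these cells. Among Myog-positive cells without Mki67, those with Pax7 were at 321 and 265 CPM and those without Pax7 at 806 and 810.3 CPM. Cells with both Mki67 and Myog were at 377 and 274 CPM.

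Within the Pax7-positive Mki67-negative class the GFP+ to GFP− ratio of Cdkn1a was 1.40 (1.32 to 1.5). It was 1.63 (1.51 to 1.75), past the 1.5-fold limit, at 189 against 116 CPM when cells with Myog were left out. After thinning, 52.3% (46.7 to 57.8) of 331 GFP+ and 38.9% (36.4 to 41.5) of 1408 GFP− cells of the class had a Cdkn1a UMI, against 75.1% and 61.5% before, at median depths of 17242 and 14003 UMIs. No kept cell type is known to lack these genes, so the part of a cell's UMIs that came from RNA outside cells was not measured. The empty-droplet levels describe the make-up of that RNA and are not a background level in cells. Cells of the macrophage list had 657 CPM (611 to 704) in the GFP+ and 533 CPM (478 to 593) in the GFP− library. Without cells carrying other cell types' markers the ratio was 1.23 (1.18 to 1.28) over all kept cells and 1.44 (1.35 to 1.54) in the Pax7-positive Mki67-negative class, beside 1.32 (1.27 to 1.37) and 1.40 (1.32 to 1.5) with them.

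Cdkn1b (p27; ENSMUSG00000003031, chr6:134920401-134925513, plus strand) varied little between classes. It was at 55.3 CPM (49.7 to 61.3) in Pax7-positive Mki67-negative, 63.3 CPM (54.5 to 73.2) in Mki67-positive and 45.2 CPM (38.6 to 52.6) in Myog-positive cells of the GFP+ library. Its levels in the GFP− library were 52.0 CPM (49.1 to 55.1), 52.1 CPM (48.2 to 56.2) and 40.8 CPM (37.6 to 44.1), and empty droplets were at 47.9 and 49.3 CPM. No ratio between classes reached 1.5. Among Mki67-positive cells, those below the top replication range had 85.4 CPM (70.5 to 102) in the GFP+ and 59.8 CPM (54.3 to 65.7) in the GFP− library. Those in the range had 43.9 CPM (34.0 to 55.7) and 42.1 CPM (36.8 to 47.8), below the others in both libraries with intervals apart. From cells without Myog to the top Myog range the level went from 62.0 CPM (56.8 to 67.6) to 39.5 CPM (30.4 to 50.6) in the GFP+ and from 55.0 CPM (52.4 to 57.8) to 31.8 CPM (27.2 to 36.8) in the GFP− library.

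Cdkn2c (p18; ENSMUSG00000028551, chr4:109660876-109667189, minus strand) was highest in Mki67-positive cells. It was at 34.6 CPM (30.2 to 39.4) in Pax7-positive Mki67-negative, 72.0 CPM (62.6 to 82.5) in Mki67-positive and 30.3 CPM (25 to 36.5) in Myog-positive cells of the GFP+ library. The GFP− values were 36.7 CPM (34.2 to 39.3), 63.2 CPM (59.0 to 67.8) and 29.7 CPM (27.0 to 32.6), and empty droplets were at 50.1 and 41.3 CPM. The intervals of the libraries overlapped in every class. Mki67-positive over Pax7-positive Mki67-negative gave 2.08 (1.72 to 2.52) and 1.73 (1.56 to 1.90). Mki67-positive cells had 72.1 CPM (59.2 to 86.8) inside and 72.0 CPM (58.4 to 87.9) outside the top replication range in the GFP+ library, and 73.3 CPM (66.3 to 80.8) and 55.6 CPM (50.3 to 61.3) in the GFP− library. Mki67-negative cells in that range had 19.3 CPM (8.81 to 36.6) and 34.8 CPM (25.6 to 46.2), below the Mki67-positive groups. After thinning, 24.6% (20.9 to 28.6) of Mki67-positive and 16.5% (14.6 to 18.6) of Pax7-positive Mki67-negative GFP− cells had a UMI, and 17.9% (10.4 to 27.7) and 16.9% (13.0 to 21.4) of the GFP+ cells. Before thinning the shares were 57.0%, 39.9%, 68.2% and 39.5%. The thinned shares stood apart in the GFP− library, and their intervals overlapped in the GFP+ library. There 5 Mki67-positive cells held 61 of the class's 207 UMIs, or 29.5%. Over the alternatives the GFP+ ratio of Mki67-positive to Pax7-positive Mki67-negative cells was 1.92 to 2.40.

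Cdkn2c in differentiating cells depended on how the classes were made. Myog-positive cells of the exclusive class had 16.0 CPM in the GFP+ and 19.4 CPM in the GFP− library. These were 0.431 (0.299 to 0.606) and 0.490 (0.418 to 0.573) times the 37.2 and 39.5 CPM of Pax7-positive cells with neither other marker. With overlapping classes the ratios were 0.876 (0.692 to 1.10) and 0.810 (0.720 to 0.911), and the gene was not called. With overlapping classes assigned again from cells thinned to 5000 UMIs they were 0.168 (0.0336 to 0.521) and 0.533 (0.389 to 0.720), past the limit in both libraries. From cells without Myog to the top Myog range Cdkn2c went from 43.1 CPM (38.7 to 47.8) to 22.6 CPM (15.8 to 31.3) in the GFP+ and from 46.9 CPM (44.4 to 49.4) to 14.4 CPM (11.4 to 17.9) in the GFP− library.

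**Figure D5:**
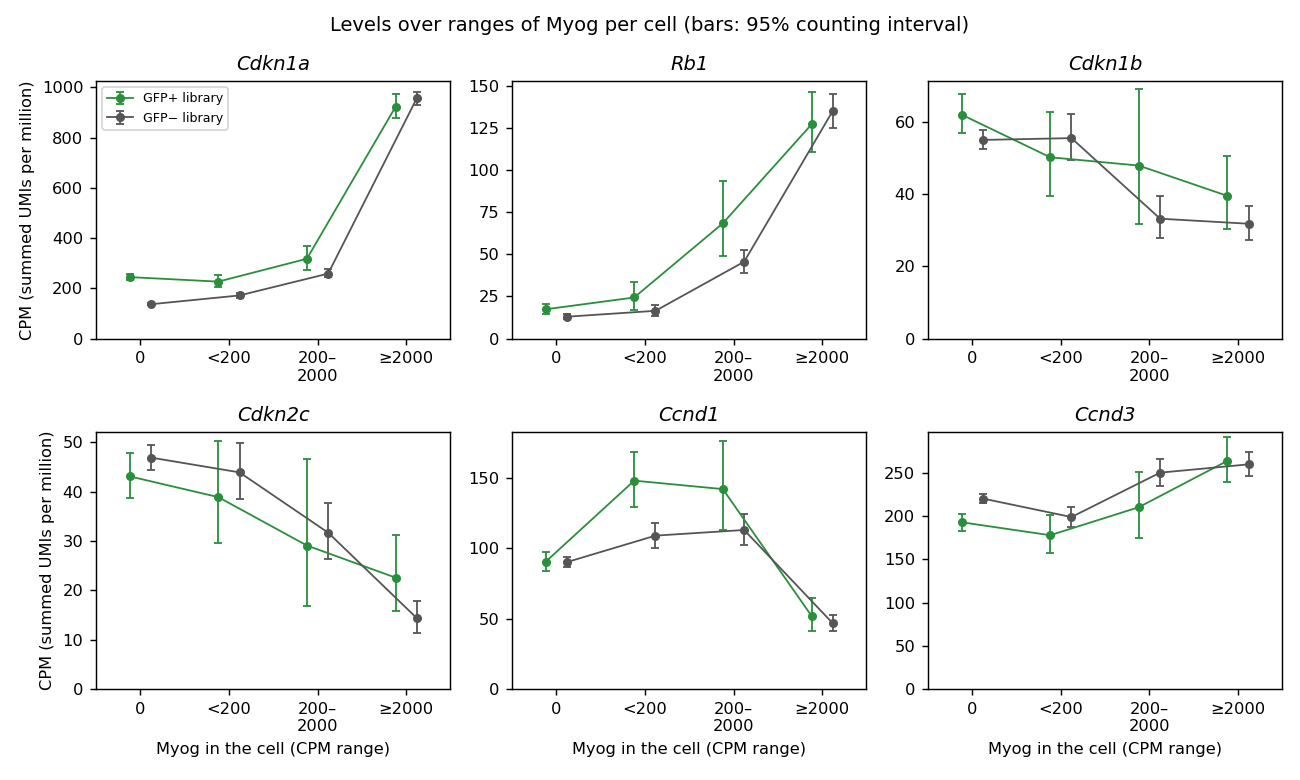
Cdkn1a, Rb1, Cdkn1b, Cdkn2c, Ccnd1 and Ccnd3 in CPM (y axis, from 0) in cells grouped by their own Myog level (x axis: 0, under 200, 200 to 2000, and 2000 CPM or more), in the GFP+ and the GFP− library, with 95% counting intervals. In the top range Cdkn1a is at 923 and 957 CPM and Rb1 at 127 and 135 CPM, and Cdkn2c at 22.6 and 14.4 CPM. Cells with other cell types' markers are included in all ranges.

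Rb1 (ENSMUSG00000022105, chr14:73183673-73325822, minus strand) was at 17.0 CPM (14 to 20.5) in Pax7-positive Mki67-negative, 31.7 CPM (25.5 to 38.9) in Mki67-positive and 75.8 CPM (67.2 to 85.2) in Myog-positive cells of the GFP+ library. The GFP− values were 15.7 CPM (14.1 to 17.5), 22.6 CPM (20.1 to 25.4) and 68.1 CPM (64.0 to 72.4), and empty droplets were at 27.2 and 25 CPM. The classes had the same order in both libraries, with intervals apart. Myog-positive over Pax7-positive Mki67-negative gave 4.46 (3.57 to 5.61) and 4.32 (3.83 to 4.90), and 6.72 (5.13 to 8.88) and 7.29 (6.22 to 8.57) in exclusive classes. Over the ranges of Myog, Rb1 was at 17.4, 24.4, 68.4 and 127 CPM in the GFP+ and 13.0, 16.5, 45.6 and 135 CPM in the GFP− library. The level was higher in each successive range of both libraries, as it was for Cdkn1a in the GFP− library. Among Myog-positive cells without Mki67, Rb1 was at 39.7 CPM (28.1 to 54.5) and 33.5 CPM (28.5 to 39.1) in those with Pax7 and at 118 CPM (101 to 136) and 115 CPM (107 to 124) in those without.

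Mki67-positive cells without Myog had 18.4 CPM (12.5 to 26.2) and 14.5 CPM (12.1 to 17.3) of Rb1, and those with Myog 50.3 CPM (38.4 to 64.8) and 39.4 CPM (33.6 to 45.9). The ratio of all Mki67-positive to Pax7-positive Mki67-negative cells was 1.86 (1.40 to 2.48) in the GFP+ and 1.44 (1.22 to 1.68) in the GFP− library, past the limit in the GFP+ library alone. With cells thinned to 5000 UMIs and classes assigned again the values were 0.849 (0.217 to 2.41) and 3.03 (2.06 to 4.45). The GFP+ interval then gave no direction, and the GFP− ratio was past the limit. Thinned in this way, Myog-positive over Pax7-positive Mki67-negative gave 4.40 (2.72 to 7.20) and 7.78 (5.82 to 10.6).

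Trp53 (ENSMUSG00000059552, chr11:69580359-69591873, plus strand) was at 97.4 CPM (90.0 to 105) in Pax7-positive Mki67-negative, 121 CPM (108 to 134) in Mki67-positive and 119 CPM (108 to 130.2) in Myog-positive cells of the GFP+ library. The GFP− values were 109.6 CPM (105 to 114), 150.0 CPM (143 to 157) and 116 CPM (111 to 122), and empty droplets were at 77.3 and 87.4 CPM. Mki67-positive cells stood above the other classes in the GFP− library, and no ratio between these classes, or between the libraries within them, reached 1.5. In Mki67-positive cells of the top replication range Trp53 was at 148 CPM (129 to 169) and 175 CPM (164 to 186), and in those below it at 89.8 CPM (74.5 to 107) and 131 CPM (123 to 139.8), with intervals apart in both libraries. In the top Myog range it was at 115 CPM (98.8 to 133) and 98.3 CPM (90.2 to 107), against 94.8 CPM (88.3 to 102) and 122 CPM (118 to 126) in cells without Myog.

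Genes that work with these members were counted from 4 lists. For comparison, 10.1% of all genes were higher and 5.49% lower in Mki67-positive cells, and 8.01% and 8.15% in Myog-positive cells. In exclusive classes these shares were 8.93% and 4.66%, and 7.45% and 10.4%. A count of 1 in lists of this size is near such shares. Of 7 other kinases and inhibitors tested in Mki67-positive against Pax7-positive Mki67-negative cells, 1 was higher and 1 lower in both libraries. Cdk2, the partner of the E-type cyclins, had ratios of 2.20 (1.65 to 2.94) and 2.04 (1.77 to 2.35). Cdkn1c, which encodes the inhibitor p57, had 0.542 (0.515 to 0.570) and 0.426 (0.417 to 0.435). In Myog-positive cells 2 of the 7 were higher and 0 lower: Cdkn1c at 2.96 (2.88 to 3.05) and 2.10 (2.07 to 2.13), and Cdk2 at 2.03 (1.54 to 2.68) and 1.68 (1.46 to 1.95). In exclusive classes 1 was higher, Cdkn1c, and 2 lower, Cdkn2b and Cdkn2d. Cdkn1c reached 7361 CPM in the GFP+ and 8270.2 CPM in the GFP− cells of the top Myog range, against 927 and 1253 CPM in cells without Myog.

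Of 11 pocket protein and E2F genes tested in Mki67-positive cells, 6 were higher and 0 lower, with a median log2 ratio of 0.88 beside 0.01 for all genes. They included the E2F repressors E2f7 at 7.14 and 7.67 and E2f8 at 4.42 and 4.70. The pocket protein gene Rbl1 had 4.17 and 4.21, and the activator E2f1 5.52 and 2.82. In Myog-positive cells 5 of 9 were higher and 0 lower, and 3 of 8, E2f2, E2f4 and E2f8, in exclusive classes. E2f8 then stood at 41.2 against 3.59 CPM in the GFP+ and 55.4 against 2.98 CPM in the GFP− library. E2f2, an activator, stood at 38.8 against 6.64 CPM and at 31.6 against 7.69 CPM.

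A list of cyclin and inhibitor turnover also took in Ccna2, Cdc25a, Cdt1, Gmnn, Cdk7 and Ccnh, which are not turnover genes. Of its 11 genes tested, 8 were higher in Mki67-positive cells and 0 lower. Those higher included Cdc25a, Cdt1, Gmnn and Ccna2, the S-phase cyclin (43.5 and 63.8). Fbxo5, an inhibitor of the anaphase-promoting complex, was also higher (37.3 and 33.7). In Myog-positive cells 5 of 11 were higher, but 0 of the 7 that reached the minimum in exclusive classes, where Fbxw7 was lower. Ccna2 was then at 3.20 and 3.87 CPM.

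Of 17 p53 regulators and targets tested, 0 were higher and 1 lower in Mki67-positive cells, Gadd45a at 0.322 (0.292 to 0.354) and 0.346 (0.328 to 0.365). The shares of all genes were 10.1% and 5.49% there, and 8.01% and 8.15% in Myog-positive cells. In Myog-positive cells 1 was higher and 1 lower: Pmaip1, which encodes the pro-apoptotic protein NOXA, at 2.46 (1.98 to 3.05) and 2.55 (2.29 to 2.84), and Fas, a death receptor gene, at 0.482 (0.311 to 0.728) and 0.569 (0.457 to 0.704). Mdm2, whose product degrades p53, had 1.31 (1.07 to 1.61) and 1.16 (1.05 to 1.29). Between the libraries over all kept cells, 0 of 7 kinases and inhibitors and 0 of 9 pocket protein and E2F genes were called. Of all genes 7.84% were higher and 3.54% lower in the GFP+ library. Of 11 genes of the mixed turnover list 2 were lower in the GFP+ library, Fbxo5 at 0.567 (0.447 to 0.711) and Ccna2 at 0.631 (0.559 to 0.711). Of 17 p53 genes 1 was lower, Ccng1 at 0.640 (0.566 to 0.723).

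Within classes few genes of these lists were called between the libraries. In Pax7-positive Mki67-negative cells 0 of 39 were higher in the GFP+ library and 2 lower, Cdkn1c at 0.640 (0.625 to 0.655) and Skp2, which encodes a subunit of the ligase that marks p27 for degradation, at 0.644 (0.502 to 0.819). The backgrounds there were 4.53% and 2.58%. In Mki67-positive cells 2 of 47 were higher, E2f1 at 1.51 (1.20 to 1.90) and Plk2 at 1.73 (1.43 to 2.09). There 4 were lower: Cdkn2b at 0.654 (0.469 to 0.893), Rbl2 at 0.655 (0.431 to 0.965), Ccng1 at 0.451 (0.344 to 0.583) and Trp53inp1 at 0.431 (0.230 to 0.747). The backgrounds were 8.81% and 7.15%. In Myog-positive cells 0 of 43 were higher and 2 lower, Sesn1 at 0.586 (0.373 to 0.887) and Zmat3 at 0.657 (0.488 to 0.871), beside 5.59% and 6.09% of all genes.

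Likeness of pattern was measured by Pearson's r of log2(CPM + 1) over 8 points (the 3 classes and the cells with none of the markers, in each library), among 4236 genes that reached 50 CPM. The points share libraries, depth and cells, so the values only describe these data. Cdkn1a was closest to Dnajb6 (0.971), Orai1 (0.957) and Pmaip1 (0.932), and 6 genes reached 0.9 with it. Rb1 was closest to Chd3 (0.963), Cdc34 (0.948) and Prxl2b (0.926), with 7 genes at 0.9. Cdkn2c was closest to Erg28 (0.966), Tubb5 (0.965) and Rfc1 (0.963), with 60 genes at 0.9, and Ccne2 to Pole4 (0.975), Rbmxl1 (0.970) and 1110004F10Rik (0.965), with 85. Trp53 and Ccnd3 had 475 and 326 genes at 0.9.

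Several members share their position with another counted gene on the opposite or the same strand, and the sources used here do not say whether reads were assigned by strand. Ccne2 overlaps Ints8, Ccnd3 overlaps Bysl, Ccnd1 overlaps LTO1, Ccnd2 overlaps Gm43126 and 9330179D12Rik, and Rb1 overlaps Rcbtb2, Gm17233 and Lpar6, so their counts are uncertain to that extent. The GFP+ to GFP− ratio of Ints8 was 0.797 (0.688 to 0.921) over all kept cells and 0.673 (0.496 to 0.898) in Mki67-positive cells, where that of Ccne2 was 2.26 (1.85 to 2.75) and 2.99 (2.40 to 3.72).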

How the data were processed

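Each library was deposited as a matrix of counts, that is, unnormalized UMIs per gene and barcode for all barcodes, made with Cell Ranger 4 per the file headers. The submitters' processing notes also name mm10 and Seurat. For the annotation release, the counting settings and any cell filter of the authors the sources used here give nothing. From the deposited counts, cells were taken as barcodes of 1000 or more UMIs, 500 or more genes and no more than 10% mitochondrial UMIs. Of 647 GFP+ and 3076 GFP− barcodes past the UMI limit, 604 and 2683 remained. The libraries held 13928952 and 49709323 UMIs in all. The kept cells' UMIs were summed by library and marker class and divided by their total (CPM). Ratios carry the exact conditional (Clopper-Pearson) 95% interval, shares of cells the exact binomial one with every cell thinned to 5000 UMIs, so that 66 and 190 shallower cells dropped out. Intervals cover counting error only, and those that compare overlapping classes take their cells as separate. With 1 library per group there was no test and no p-value. A call needed a ratio of 1.5 either way and 10 CPM in 1 group. No doublet caller was run. All 10 members were named in every comparison, and from each other list at most 4 called genes with the largest log2 ratio. Mdm2, E2f4, Fbxw7, Cdkn2b, Cdkn2d and Ints8 were added after their values were seen. Cdc25a, Cdt1, Skp2 and Fzr1 were named beyond that limit in Mki67-positive cells. The members, marker lists and gene lists were chosen with earlier results of these data known. Gene positions come from the GRCm38 annotation, which matched 32158 of 32286 features. The scripts were tested on simulated data and used matplotlib 3.10.9, pandas 2.3.3, numpy 2.4.6, scipy 1.17.1 and Python 3.11.15. The 16 alternatives tried changed the cell filters, the marker classes, the totals, the weighting of cells, the level minimum and the thinning depth.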

Additional observations from a re-analysis of the deposited data

How the results depend on the processing

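No paired analysis was possible because there was 1 library per group, and for the same reason no replicate could be left out. Over the alternatives, 194 counts stayed within 1.5 times their value and 58 did not. Of the members' own ratios, 415 moved by less than their counting interval, 113 moved further and 2 changed direction from past the 1.5-fold limit, both for Mki67-positive over Pax7-positive Mki67-negative GFP+ cells thinned to 5000 UMIs, with classes assigned again: Ccne1 at 0.796 and Rb1 at 0.849. With these 2, 27 ratios crossed 1 under an alternative. In 1 of the 27 both intervals lay off 1, that of Ccnd2 in the same contrast of the GFP− library, from 1.47 to 0.222 without other cell types' cells. Limits of 2000 or 5000 UMIs per barcode and a mitochondrial limit of 20% moved 0 of the members' ratios. For the counts of members higher or lower in the GFP+ library, over all kept cells 0 were higher with thinning, with a 20 CPM minimum or without the 5% deepest cells, and 2 were lower with thinning but 0 with a 20 CPM minimum or without other cell types' cells. In Pax7-positive Mki67-negative cells 3 were higher with thinning and 1 with cells weighted equally, exclusive classes, a mitochondrial limit of 5% or no minimum, and 1 was lower with thinning or equal weights. In Mki67-positive cells 2 were higher with thinning or without the deepest cells and 3 with equal weights, and lower were 3 with thinning and 1 with equal weights, no minimum, totals without mitochondrial and ribosomal genes or without the deepest cells. Without the deepest cells those higher were Cdkn1a at 1.61 (1.46 to 1.78) and Rb1 at 1.90 (1.43 to 2.49). The lower one was Ccnd2 at 0.607 (0.312 to 1.09). In Myog-positive cells 2 were higher with equal weights and 0 with exclusive classes, and 1 was lower with thinning or no minimum. Between classes, a 20 CPM minimum left 1 member higher in Mki67-positive cells, and in Myog-positive cells 1 was lower with thinning or exclusive classes. Genes past the limit in either direction over all kept cells, in Pax7-positive Mki67-negative, Mki67-positive and Myog-positive cells numbered 949, 562, 1344 and 936. With thinning they were 1622, 1682, 3427 and 2360, with a 20 CPM minimum 575, 355, 791 and 541, and with no minimum 5141, 3795, 4636 and 4323. Equal weights gave 1468 over all kept cells and 1188 in the Pax7 class, and leaving out other cell types' cells gave 503 over all kept cells. Between classes no minimum gave 2849 genes for Mki67-positive and 2944 for Myog-positive cells, against 1239 and 1261, and at least 2 marker UMIs gave 1929 for the latter. For members whose share of cells stood apart between libraries, without thinning 3 were higher and 1 lower over all kept cells and 1 higher in each of the Pax7 and Myog classes. At 10000 UMIs 1 was lower over all kept cells, and 1 higher and 0 lower in the Pax7 class. At 2000 UMIs 0 were lower over all kept cells, 1 was higher in each of the 3 classes and 0 were lower in the Pax7 class. The causes were not tested, except that fewer genes are tested under a higher minimum, and thinning leaves few UMIs of the lower members.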
